A study of Mus musculus with 4 samples.

Results

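The tenascins, periostin, TGFBI and dermatopontin are secreted proteins of the extracellular matrix, and 7 of their genes were read in stromal cells that carried Wnt3A: Tnn, Tnc, Tnxb, Tnr, Postn, Tgfbi and Dpt. The members were chosen by name with the difference between the groups already known, so their differences are a description of these arrays. Every probe was taken whose gene name in the array annotation, or whose current RefSeq symbol, was one of the 7. This gave 11 probes of 41174, or 7 genes of 27597 names on the array. Of these probes, 10 carried the symbol and 1 carried an older name, A630052E07Rik, that RefSeq lists as a synonym of Postn. All 11 probes entered the comparison, for which a probe had to exceed the estimated detection floor on the 2 arrays of either group.

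Tenascins are large modular glycoproteins that bind cells and other matrix molecules without being part of the rigid scaffold. Tenascin-C (Tnc) is laid down in embryonic and healing tissue, tenascin-W (Tnn) in bone and other stroma, tenascin-X (Tnxb) around collagen fibrils, and tenascin-R (Tnr) mainly in the nervous system. Periostin (Postn) and TGFBI (Tgfbi) are related proteins built from fasciclin domains that bind integrins and collagens, and dermatopontin (Dpt) is a small protein that binds decorin and takes part in collagen fibril assembly.

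RNA came from OP9, a mouse bone marrow stromal cell line that is used to support blood progenitors in culture. The 2 Wnt3A samples carried the retroviral vector LZRS-IRES-GFP with the Wnt3A gene, and the 2 Control samples carried the same vector without it. All 4 were cells of the 1 line and all bear the vector, and Wnt3A is a secreted ligand of the canonical Wnt pathway, which acts through beta-catenin. The RNA was amplified by PCR and read on 1-colour Agilent arrays, 1 array per sample, and the labels speak of separate replicates without naming separate cultures.

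Values below are linear intensities of the deposited table of all samples, in which the median of each array is 1. The deposited scanner files do not match that table. Spearman's rho across spots between a table column and its own scanner file was 0.684 and 0.746 for the Wnt3A arrays and 0.637 and 0.826 for the Control arrays, and each of the 4 columns was closest to the file of Control replicate 2. In the table, arrays of 1 group were more alike (0.954 within Wnt3A and 0.950 within Control) than arrays of different groups (0.924 to 0.929). In the scanner files they were not (0.765 within Wnt3A, 0.713 within Control, 0.695 to 0.840 between groups), and the file of Control replicate 1 was faint, with 41.8% of spots well above background. The table was used because an earlier look at these data had shown that it groups by label, a choice that favours a difference between the groups, and the scanner values are given after the results. On each array of the table, spots of the same probe differed by a median SD of 0.08 to 0.10 (log2, 245 probes with 10 spots each), against 3.41 to 3.51 over all spots, so the join of table to probe names holds.

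The stromal label was checked in the table with 15 stromal markers, whose median level lay at the 85.7 and 80.5 percentile of the probes in the Wnt3A arrays and at the 86.3 and 90.3 percentile in the Control arrays. The highest of them were Col1a1, a collagen I chain, and Vim, an intermediate filament protein. For 12 macrophage markers, of which Cd68 and Cd14 were the highest, the median was at the 49.5 and 52.3 percentile in Wnt3A arrays and the 47.7 and 49.7 percentile in Control arrays. In the scanner files these medians were 73.9 and 87.2 for Wnt3A and 76.6 and 88.3 for Control, above those of the stromal markers. The neural, endothelial and epithelial lists had medians at the 18.6 to 53.4 percentile in Wnt3A arrays and the 25.6 to 58.5 percentile in Control arrays of the table.

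The single Wnt3a probe read 0.0112 and 0.123 in the Wnt3A arrays, against 0.0151 and 0.0134 in the Control arrays, and was above the floor on 1 array only, Wnt3A replicate 2. Since the probe begins 2599 bases into the transcript and the extent of the inserted sequence is not given in the sources used here, it is no check of the labels. Axin2, a target of the canonical pathway, read 0.127 and 0.208 in the Wnt3A arrays and 0.0156 and 0.0138 in the Control arrays, where it was below the floor. It was at least 2.43-fold higher (log2 difference 3.46 ± 0.39, adjusted p = 0.0648 in limma). A floor 2 times as high would bring this bound to 1.21-fold. The Axin2 probe entered the comparison through its Wnt3A arrays alone.

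The probes below are the 6 past the threshold described further on, together with the second Postn probe and the Tnc probe of a separate cDNA, which did not pass, so that the probes of these genes can be compared. Each is 60 bases long, as the array annotation gives it, with its position on mouse build mm8. Capitals mark the longest run of bases that the probe shares with a probe of a gene outside the 7, a run of 12 to 15 bases over all 11 probes.
Tnn probe A_52_P171014, chr1:161922408-161922466, - strand: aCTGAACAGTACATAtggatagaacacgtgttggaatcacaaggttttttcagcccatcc
Tnc probe A_52_P355169, chr4:63499575-63500338, - strand: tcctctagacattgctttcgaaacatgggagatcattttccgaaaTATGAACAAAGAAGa
Tnc probe A_51_P324992, chr4:63471205-63471264, - strand: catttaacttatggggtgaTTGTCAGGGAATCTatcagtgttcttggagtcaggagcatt
Tnc probe A_51_P291438, chr4:63446146-63446191, - strand: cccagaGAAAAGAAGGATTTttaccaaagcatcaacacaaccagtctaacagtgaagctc
Tnxb probe A_51_P505530, chr17:34327011-34327151, + strand: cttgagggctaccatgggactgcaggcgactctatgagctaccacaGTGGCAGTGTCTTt
Postn probe A_51_P489192, chr3:54478490-54478549, + strand: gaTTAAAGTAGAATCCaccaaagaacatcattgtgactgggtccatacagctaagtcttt
Postn probe A_51_P469817, chr3:54468959-54469018, + strand: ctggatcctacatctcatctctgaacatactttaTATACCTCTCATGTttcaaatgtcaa
Dpt probe A_51_P116651, chr1:166660247-166660306, + strand: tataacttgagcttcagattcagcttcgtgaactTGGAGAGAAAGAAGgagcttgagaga

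No probe of the 7 genes shared more than 9 bases in a row with a probe of another of the 7. The probes of the 4 tenascins, for example, are separate sequences. Probes were compared only with probes and not with whole transcripts, so whether a probe reads a repeat shared by the tenascins was not tested. The Tnc probe at transcript position 2324 covers 764 positions of the genome with its 60 bases, and the annotation thus splits it over an intron.

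**Figure D1:**
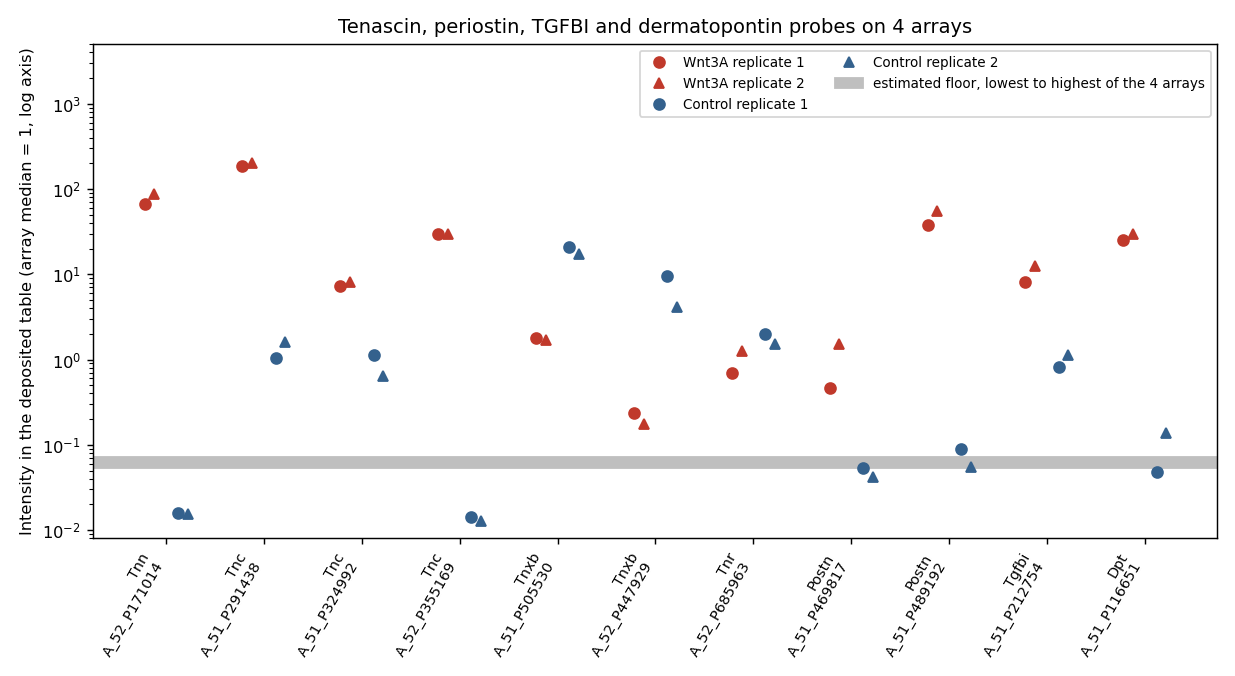
Intensity in the deposited table (log axis, array median 1) of the 11 probes of the tenascin, periostin, TGFBI and dermatopontin genes on the 2 Wnt3A arrays (red) and the 2 Control arrays (blue), with the grey band showing the range of the estimated floor, 0.0533 to 0.0729. The red points lie above the blue ones for Tnn, Tnc, Postn, Tgfbi and Dpt and below them for Tnxb and Tnr, and the Control points of Tnn and of 1 Tnc probe lie under the band.

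Wnt3A arrays held high tenascin-W, tenascin-C, periostin and dermatopontin signals that were near or below the detection floor in Control arrays for at least 1 probe of each gene. Tenascin-X went the other way. Of the 11 probes, 5 were higher and 1 was lower at an adjusted p under 0.05 in limma, where 0.424% and 0.264% of the 33709 tested probes were higher and lower (0.688% in all). Nothing is read from that count, since the 7 genes were chosen on this comparison. The higher calls of Tnn, Tnc A_52_P355169, Postn A_51_P489192 and Dpt also entered the comparison through their Wnt3A arrays alone. Their p-values rest wholly or partly on Control values below the floor, so these calls are a description only. Among the 6 probes above the floor on all 4 arrays, 1 passed. With the replicate number as a block, 0 of 11 probes and 0 of all tested genes passed in limma. At an unadjusted p under 0.05 were 10 of the 11 probes, with and without the block. Without the block, so were 4563 of the 33709 tested probes, and nothing is read from this count either. With any 1 of the 4 arrays left out, which leaves 1 array in a group, the calls were lost. In all 11 probes the values of the groups did not overlap, 8 higher and 3 lower in Wnt3A, where 45.1% of tested probes did not overlap (21.5% higher and 23.6% lower). The median difference was 4.14 on the log2 scale over the 11 probes and -0.02 over all tested probes. Less RNA per cell and fewer cells that hold it cannot be told apart in these samples of whole cultures.

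Tnn, whose protein tenascin-W binds integrins and is known from bone and tumour stroma, had intensities of 66.9 and 86.2 in the Wnt3A arrays, against 0.0161 and 0.0153 in the Control arrays. Both Wnt3A arrays were far above the floor and both Control arrays were below it. The difference was 12.24 ± 0.32 (log2, SE), and against the floor Tnn was at least 1138-fold higher. The floor of each array was estimated as 4.94 times its 1st percentile and is lenient. That factor was carried over from the scanner files, which do not match the table. A floor 2 times as high would bring this bound to 569-fold. The Tnn probe lies near the 3' end of its transcript, at position 5018.

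Tnc was read by 3 probes. The probe at position 6220 of the transcript had intensities of 184 and 200.3 in the Wnt3A arrays, against 1.05 and 1.60 in the Control arrays. All 4 values were above the floor, the groups did not overlap, and the difference was 7.21 ± 0.34 (log2), or 148-fold. The probe at position 2324 had intensities of 29.4 and 29.4 in the Wnt3A arrays, against 0.0144 and 0.0129 in the Control arrays. Here neither Control array was above the floor, and the difference of 11.08 ± 0.31 (log2) stood for a rise of at least 441-fold. The third probe, A_51_P324992, was designed on the cDNA AK048765. It had intensities of 7.21 and 8.01 in the Wnt3A arrays, against 1.14 and 0.648 in the Control arrays, a difference of 3.14 ± 0.43 (log2) that did not pass the threshold. The 3 probes thus had the same direction. The probe at position 6220 and A_51_P324992 differed in size by more than their standard errors. For the probe at position 2324 only a bound is known, 220-fold with a floor 2 times as high, so its size is not compared.

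Further probes lie between the outermost Tnc probes, which span 54.1 kb of chromosome 4, under names other than Tnc. They were looked for after the values of the 7 genes were known. There were 4 of them, and all 4 were higher in the Wnt3A arrays with adjusted p-values of 0.0227 to 0.0299 in limma. ENSMUST00000070019, AK048833 and AK031717 entered the comparison through their Wnt3A arrays alone. Their p-values rest on Control values below the floor, so they are a description only. The probe of ENSMUST00000070019, which the array annotation describes as tenascin C, lies on the strand of Tnc and had 3.23 and 2.22 in the Wnt3A arrays, against 0.0146 and 0.0227 in the Control arrays. Its difference was 7.20 ± 0.40 (log2), at least 40.1-fold. AK048833, a cDNA on the same strand, had 1.73 and 1.80 in the Wnt3A arrays and 0.0150 and 0.0169 in the Control arrays, a difference of 6.79 ± 0.30, at least 26.4-fold. For both probes the Control arrays were below the floor and the Wnt3A arrays above it.

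The other two probes of the interval lie on the strand opposite to Tnc. AK031717 had 1.50 and 1.71 in the Wnt3A arrays, against 0.0145 and 0.0129 in the Control arrays, a difference of 6.86 ± 0.32 (log2). Neither Control array was above the floor, and it was at least 24.0-fold higher. 8030451A03Rik had 9.70 and 11.5 in the Wnt3A arrays, against 0.286 and 0.216 in the Control arrays, a difference of 5.41 ± 0.35. Probes of both strands of the interval were thus higher in the Wnt3A arrays. Whether the labelling keeps the strands apart is not given in the sources used here, so reads of Tnc RNA by these probes and separate transcripts cannot be told apart. Outside the interval, none of the 5 other tested genes within 500 kb of Tnc passed the threshold, and Tnfsf8, a gene of a TNF family ligand, had a difference of 1.93 ± 0.60 at 152 kb.

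**Figure D2:**
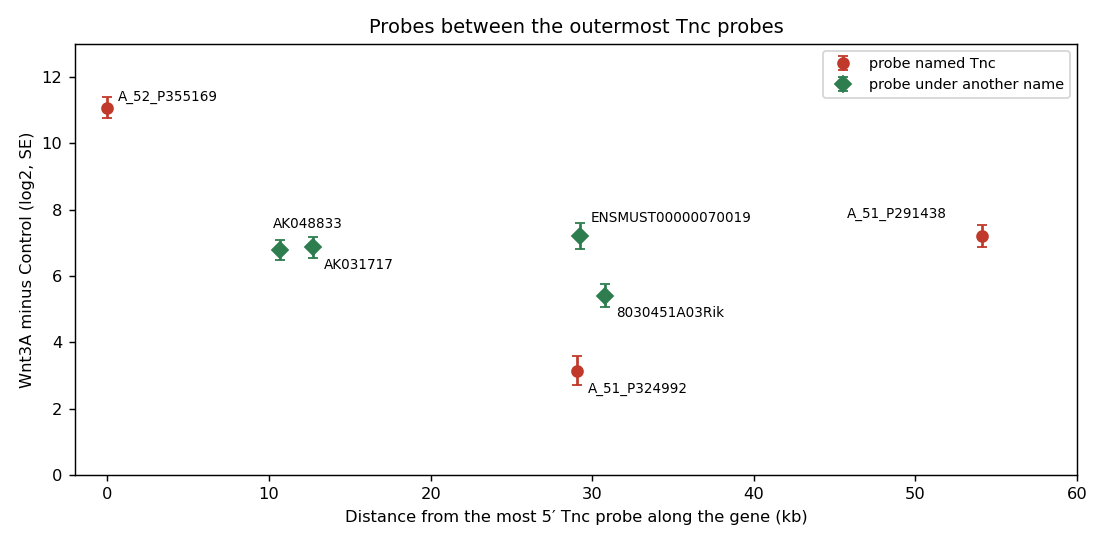
Difference between Wnt3A and Control arrays (log2, bars show the SE from limma) of the 7 probes between the outermost Tnc probes, by distance in kb from the most 5' Tnc probe along the gene. The 3 Tnc probes (red) run from 3.14 to 11.08 and the 4 probes under other names (green) from 5.41 to 7.20, all above 0, with both Control arrays below the floor for A_52_P355169, AK048833, AK031717 and ENSMUST00000070019.

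Tnxb, which encodes tenascin-X, a protein that regulates the spacing of collagen fibrils, was lower in the Wnt3A arrays by both of its probes. The probe at transcript position 11730 had 1.81 and 1.69 in the Wnt3A arrays, against 20.7 and 17.2 in the Control arrays. The difference was -3.44 ± 0.32 (log2), or 10.8-fold lower, and this was the lower call among the 11 probes, lost with no filter on dim probes (adjusted p = 0.0765 in limma) or with the filter set to all 4 arrays (0.0631). The probe at position 8854 had 0.235 and 0.176 in the Wnt3A arrays, against 9.57 and 4.17 in the Control arrays, a difference of -4.96 ± 0.55 that did not pass the threshold. All 8 values were above the floor.

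Tnr, the gene of the neural tenascin, had 0.696 and 1.25 in the Wnt3A arrays, against 1.98 and 1.54 in the Control arrays. The groups did not overlap, but the gap between the nearest arrays was 0.26 on the log2 scale. The difference of -0.91 ± 0.44 did not pass the threshold. Of 12 neural and glial markers 11 were tested and none passed. Their summed intensity was 32.5 and 32.5 in the Wnt3A arrays and 31.9 and 25.2 in the Control arrays.

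Postn was read by 2 probes. The probe at transcript position 2715 had 37.9 and 54.6 in the Wnt3A arrays, against 0.0891 and 0.0554 in the Control arrays. Of the Control arrays only replicate 1 was above the floor, and the fitted difference was 9.34 ± 0.44 (log2), which rests on 1 Control value that was not above the floor. The probe on the cDNA AK163070, named A630052E07Rik in the annotation, lies 9.53 kb upstream of it on the same strand and had 0.470 and 1.51 in the Wnt3A arrays, against 0.0537 and 0.0421 in the Control arrays. Its Wnt3A values were the most uneven of the 11 probes, with an SD of 1.17 (log2), and its difference of 4.14 ± 0.66 did not pass the threshold. Against the floor it was at least 12.6-fold higher.

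Tgfbi, whose protein shares the fasciclin domains of periostin and was first found as a product induced by TGF-beta, had 8.09 and 12.7 in the Wnt3A arrays, against 0.815 and 1.15 in the Control arrays. All 4 values were above the floor and the groups did not overlap. The difference was 3.38 ± 0.39 (log2), or 10.4-fold, with an adjusted p of 0.0671 in limma over all probes.

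Dpt had 25.2 and 29.4 in the Wnt3A arrays, against 0.0478 and 0.138 in the Control arrays. The Wnt3A arrays were close to each other, and of the Control arrays only replicate 2 was above the floor. The fitted difference was 8.39 ± 0.57 (log2) and likewise rests on 1 Control value below the floor. The call was lost with no filter on dim probes (adjusted p = 0.0513 in limma). The difference was 7.68 without Control replicate 1 and 9.10 without Control replicate 2.

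On chromosome 1, Tnn and Tnr lie 171 kb apart and Tnn and Dpt 4738 kb apart. Among tested genes within 500 kb, the 7 genes themselves left out, 0 of 8 around Tnn, 0 of 7 around Tnr, 0 of 7 around Postn, 0 of 7 around Tgfbi and 0 of 8 around Dpt passed the threshold. Tnn, which passed, and Tnr lie within that distance of each other. Around Tnxb 1 of 69 passed, C4a, a complement gene at 107 kb with a difference of -3.87 ± 0.34 (adjusted p = 0.0450 in limma). C4a has a near-identical copy, C4b, at 14.2 kb from Tnxb, whose probe had a difference of -0.90 ± 0.39, and cross-reading between the copies was not tested.

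Since Tnn, Tnc, Postn and Dpt were higher together, their promoter windows are printed for comparison, 250 bases before and 50 after the annotated start, from RefSeq on GRCm38.p6, a later build than that of the probes. All 7 genes had a window in that set, 9 windows in all, since Tnc and Postn have 2 starts each. The first window is shown for Tnc and the second, which holds a match, for Postn. Capitals mark TATAAA, the core letters of the TATA box, searched on the strand of the gene.
Tnn promoter window, chr1:160153526-160153825, - strand: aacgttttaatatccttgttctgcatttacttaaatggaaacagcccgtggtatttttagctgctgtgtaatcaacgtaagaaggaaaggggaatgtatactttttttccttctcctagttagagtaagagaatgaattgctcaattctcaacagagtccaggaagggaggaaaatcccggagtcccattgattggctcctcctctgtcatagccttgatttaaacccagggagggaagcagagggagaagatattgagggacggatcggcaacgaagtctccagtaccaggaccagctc
Tnc promoter window, chr4:64046966-64047265, - strand: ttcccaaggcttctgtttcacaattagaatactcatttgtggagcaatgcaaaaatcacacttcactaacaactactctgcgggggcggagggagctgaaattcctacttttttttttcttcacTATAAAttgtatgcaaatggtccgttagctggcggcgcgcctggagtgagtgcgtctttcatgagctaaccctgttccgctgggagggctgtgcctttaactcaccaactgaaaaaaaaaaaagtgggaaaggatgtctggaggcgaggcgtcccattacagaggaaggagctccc
Postn promoter window, chr3:54360857-54361156, + strand: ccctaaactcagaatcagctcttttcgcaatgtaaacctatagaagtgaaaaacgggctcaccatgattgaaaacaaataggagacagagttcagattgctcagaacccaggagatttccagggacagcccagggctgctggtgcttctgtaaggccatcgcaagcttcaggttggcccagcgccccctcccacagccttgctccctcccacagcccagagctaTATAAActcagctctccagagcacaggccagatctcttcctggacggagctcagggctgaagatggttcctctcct
Dpt promoter window, chr1:164796413-164796712, + strand: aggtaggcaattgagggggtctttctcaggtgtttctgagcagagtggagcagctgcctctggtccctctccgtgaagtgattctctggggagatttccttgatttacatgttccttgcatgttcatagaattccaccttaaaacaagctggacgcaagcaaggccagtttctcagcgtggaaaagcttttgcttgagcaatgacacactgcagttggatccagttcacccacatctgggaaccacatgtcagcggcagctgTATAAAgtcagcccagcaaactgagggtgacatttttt

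TATAAA was found in a window of 3 of the 7 genes and in 8.32% of all 32851 promoter windows. The first is a share of genes, some with more than 1 window, and the other a share of windows, so they are not compared. Its first base was 126 bases before the start in Tnc, 26 before it in Postn and 12 after it in Dpt, and no match was found in Tnn. Relative to the other start of Tnc it was 205 bases before, and the first Postn window held no match. The window of that other Tnc start, not printed here, also holds the letters TATATAAG, which a search for TATAAA does not count. CTTTGA, core letters of the motif that TCF and LEF factors bind, was searched on both strands. It was found in a window of 1 of the 7 genes, Tnr, 187 bases before its start. Of all windows 16.0% held it, again a share of windows and not of genes. No match says only that these letters are not in this window.

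Receptors and partners of these proteins were taken from a list of 108 genes in 4 groups, and 0.656% of the 22859 tested genes passed the threshold (0.402% higher and 0.254% lower). Each gene was represented by its probe with the highest mean. Among 21 receptors, integrin subunits, syndecan-4 and others, 1 was higher, none was lower and the median difference was -0.12, against -0.03 over all tested genes. The receptor past the threshold was Itga11, the collagen-binding integrin subunit alpha 11, with 19.5 and 14.7 in the Wnt3A arrays, against 0.0350 and 0.0150 in the Control arrays, both below the floor. Its difference was 9.52 ± 0.56 (adjusted p = 0.0279 in limma), at least 253-fold. Itga11 entered the comparison through its Wnt3A arrays alone. Its p-value rests on Control values below the floor, so this call is a description only. The integrin subunits that bind tenascin-C or periostin did not pass. Itga9, a tenascin-C receptor subunit, had a difference of 1.27 ± 0.41, Itgav -0.12 ± 0.30 and Itgb3 0.16 ± 0.33. Sdc4, the syndecan that takes part in adhesion to fibronectin, had 30.3 and 26.0 in the Wnt3A arrays and 62.7 and 77.0 in the Control arrays (-1.31 ± 0.31, adjusted p = 0.212).

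Of 27 matrix partners 25 were tested, 2 were higher and none was lower, with a median difference of 0.12. Fmod, the gene of the collagen-binding proteoglycan fibromodulin, had 107 and 103 in the Wnt3A arrays, against 0.415 and 0.961 in the Control arrays (7.38 ± 0.48, adjusted p = 0.0299 in limma). Dcn, the gene of decorin, which dermatopontin binds, had 9.65 and 19.4 in the Wnt3A arrays, against 0.237 and 0.211 in the Control arrays (5.93 ± 0.46, adjusted p = 0.0356). The other partners ran from Fbn1, the gene of fibrillin-1, at -4.91 ± 1.27 to Col12a1, a fibril-associated collagen, at 5.55 ± 1.22. Col3a1, a fibrillar collagen, had 235.5 and 239.2 in the Wnt3A arrays and 7.86 and 19.6 in the Control arrays (4.25 ± 0.51, adjusted p = 0.0718). These 3 are named after their values were seen. By their probe with the highest mean Col3a1 and Col12a1 did not pass, and 1 other probe of each did. Fn1, the gene of fibronectin, had a difference of 0.06 ± 0.33.

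Of 33 genes known to regulate tenascin or periostin genes 31 were tested and none passed the threshold, 16 with a positive and 15 with a negative difference. The smallest p-values were those of Tgfb2, a TGF-beta ligand, with 1.40 and 2.77 in the Wnt3A arrays and 0.122 and 0.197 in the Control arrays (3.66 ± 0.48, adjusted p = 0.0829 in limma), and Sox4, a transcription factor gene (1.89 ± 0.33, adjusted p = 0.130). Twist1, whose product is known to act on the periostin promoter, had a difference of 2.01 ± 0.49 and Prrx1, a mesenchymal homeobox gene, 0.86 ± 0.30.

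Of 28 other matricellular and linker genes 26 were tested, 2 were higher and 1 was lower. The 3 are genes of basement membrane linkers. Npnt, the gene of nephronectin, had 36.8 and 41.5 in the Wnt3A arrays, against 2.28 and 2.95 in the Control arrays (3.91 ± 0.31, adjusted p = 0.0370 in limma). Nid2, the gene of nidogen-2, had 16.0 and 14.5 in the Wnt3A arrays, against 1.07 and 1.19 in the Control arrays (3.75 ± 0.30, adjusted p = 0.0370). Nid1, the gene of nidogen-1, had 0.208 and 0.220 in the Wnt3A arrays, against 7.48 and 8.22 in the Control arrays (-5.20 ± 0.30, adjusted p = 0.0279). The paired nidogen genes thus lay on opposite sides. The remaining 23, among them the thrombospondin, SPARC and CCN genes, did not pass.

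**Figure D3:**
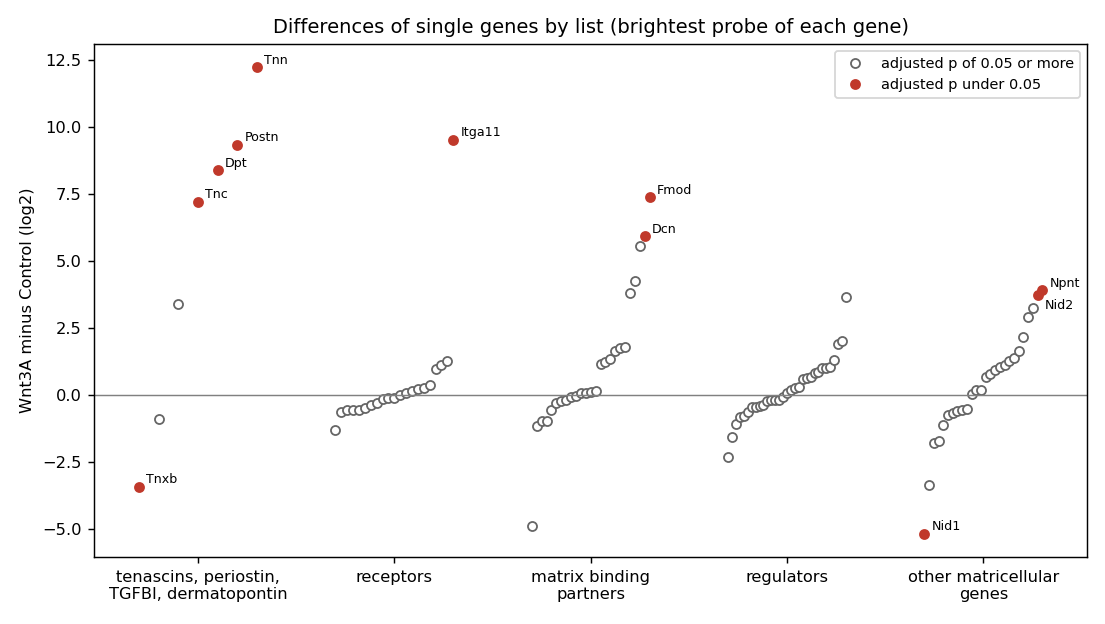
Difference between Wnt3A and Control arrays (log2) of every tested gene of the 5 lists, each by its probe with the highest mean, in rank order within a list. Filled points have an adjusted p under 0.05 in limma, 5 of the 7 tenascin, periostin, TGFBI and dermatopontin genes and 6 of the 102 genes of the other 4 lists. The calls of Tnn and Itga11 rest on Control values below the floor, and those of Postn and Dpt partly so.

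Of 6 tendon markers 5 were tested and 1 passed, Fmod, named above. Their summed intensity was 137 and 130 in the Wnt3A arrays and 25.5 and 28.4 in the Control arrays. Fmod alone gave 107 and 103 of the Wnt3A sums and 0.415 and 0.961 of the Control sums. Of the 5 tested, 2 had a positive and 3 a negative difference, with a median of -0.24. Tnmd, a defining tendon marker, was above the floor on 1 of 4 arrays, and Scx, a tendon transcription factor gene, had a difference of 0.65 ± 0.31. The summed intensity of the 15 stromal markers was 1201 and 1240 in the Wnt3A arrays and 647 and 917 in the Control arrays. Col1a1 alone had 671 and 736 in the Wnt3A arrays and 158 and 256 in the Control arrays. Of the 14 tested, 4 had a positive and 10 a negative difference, with a median of -0.21. Nt5e passed as higher and Kitl as lower. For the 12 macrophage markers the summed intensity was 15.7 and 15.8 in the Wnt3A arrays and 21.0 and 16.5 in the Control arrays, and none passed. The part of these markers in the differences of the 7 genes was not tested.

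Genes with the most similar profile were sought among 22852 others by the root mean square difference over the 4 arrays between log2 values centred on their own mean. The measure mostly follows the size of the difference between groups, and 4 arrays give it little detail. Nearest to Tnn were Panx3 (pannexin 3, 1.11), Wif1 (a secreted Wnt inhibitor, 1.17) and Sfrp2 (a frizzled-related protein, 1.37). Nearest to Tnc were Fgfr2 (an FGF receptor, 0.16), the ENSMUST00000070019 probe of the same interval (0.23) and Fmod (0.24). Nearest to Postn were Sfrp2 (0.22), Wif1 (0.35) and Itga11 (0.39). Nearest to Dpt were Ibsp (bone sialoprotein, 0.46), Pdzrn3 (a RING finger protein, 0.46) and Ptgdr (a prostaglandin D receptor, 0.51). Nearest to Tnxb were Jam2 (a junction protein, 0.05), Klk12 (a kallikrein protease, 0.07) and Nqo1 (a quinone reductase, 0.14). Within the 7 genes the closest pair was Tnc and Dpt (0.67), then Postn and Dpt (0.92) and Tnc and Postn (1.17). For Tnn, Panx3, Wif1, Sfrp2, Itga11, Ibsp, Ptgdr and the ENSMUST00000070019 probe, both Control values were below the floor. That part of their profiles is not measured, and the distances depend on it.

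The scanner files gave another picture. Of the 11 probes 4 were well above background on all 4 scanner arrays, and Tnn was so on none. The difference had the sign of the table in 5 of 11 probes. The 6 probes bright enough to be tested gave 0 calls, with a smallest adjusted p of 1.00, and 2 of 28714 probes passed in all (0.00697%). The Tnc probe at position 6220 had unscaled scanner intensities of 891 and 645 in the Wnt3A files, against 26.1 and 393 in the Control files, a difference of 0.91 ± 1.42 (log2) after scaling. For Tgfbi it was 1.69 ± 1.42, for the Tnxb probe at position 8854 -1.50 ± 1.42 and for the Tnxb probe at position 11730 0.46 ± 1.42, the reverse of the table. Which of both sources holds the arrays that the labels describe was not tested, and every value above rests on the table.

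**Figure D4:**
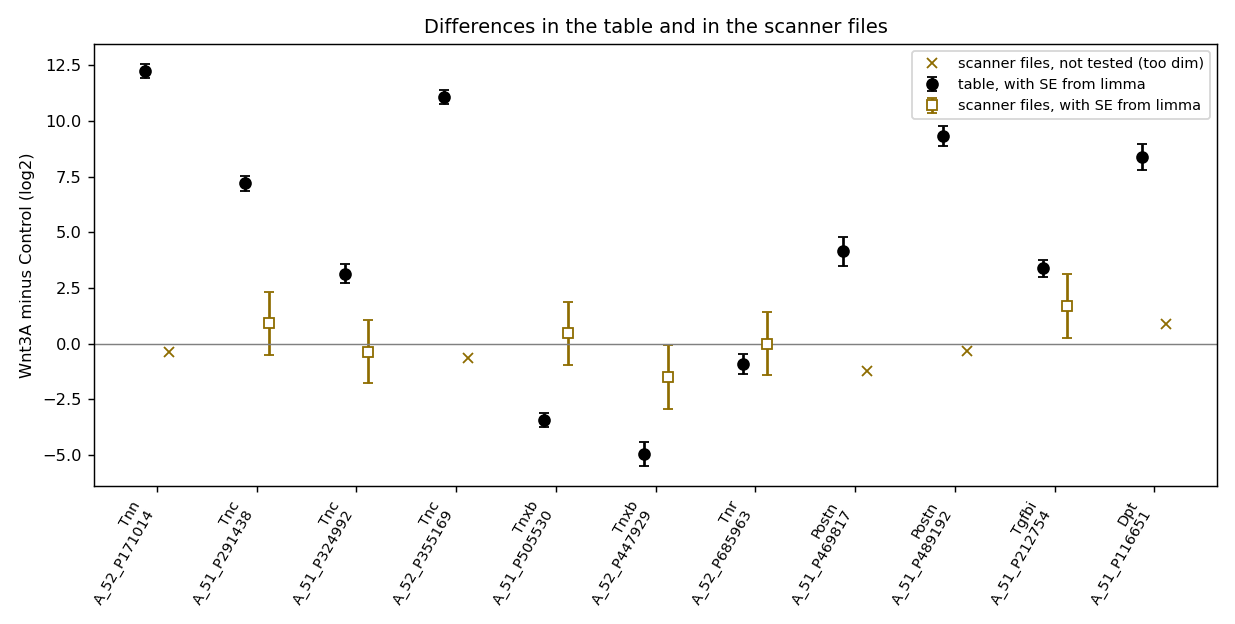
Difference between Wnt3A and Control arrays (log2) of the 11 probes in the deposited table (black, SE from limma) and in the scanner files (brown squares with SE where tested, crosses where too dim to be tested). The table differences run from -4.96 to 12.24 and the scanner differences from -1.50 to 1.69.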

How the data were processed

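The labels describe 2 Wnt3A and 2 Control samples on 1-colour Agilent arrays. The table of all samples holds intensity values that the authors deposited for 43379 spots, with a median of 1 per column; the steps behind that scale are not stated. Agilent Feature Extraction 10.5.1.1 wrote the intensity values of the scanner files, per the file headers, along with deposited flags of other kinds (0 or 1 per spot) for signal above background, saturation and uneven spots. The headers place the 4 scanner arrays on 1 slide in 1 scan.

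Table values were taken to log2 and set relative to the 75th percentile of their array, and spots of a probe were averaged. The floor of an array was 4.94 times its 1st percentile. This factor is the median over the scanner files of their lowest signal well above background over their 1st percentile. A probe was tested where the 2 arrays of either group exceeded the floor, 33709 of 41174. Names came from RefSeq by accession for 24375 probes and by symbol or synonym for 6301 and 2426, while 8072 stayed as named in the annotation, which places probes on mm8. A bounded fold takes the mean of the dim group as the higher of the floor and the measured value per array.

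The comparison used limma 3.58.1 (R 4.3.3; lmFit with plain eBayes, two-sided, Benjamini-Hochberg over all kept probes, threshold 0.05). Residual degrees of freedom were 2 and prior ones 2.30. The fit was tested on simulated data with 200 changed probes in each of 5 runs. It recovered 0% of changes of 1 on the log2 scale, 0.4% of 2, 71.2% of 4 and 96% of 6. There were 7.4 false calls per run on average. A gene that did not pass is thus not shown to be unchanged. The p-values measure only the spread between these 4 samples, which may be technical, and the number of arrays limits the precision. An exact two-sided test of 2 against 2 arrays cannot go below 0.333. The 7 genes, the gene lists and the tests were chosen with earlier results of these data known. Named genes were all members, in each list those past the threshold or the 2 with the smallest p, the 2 highest of each marker list (not reported here for the neural, endothelial and epithelial lists), and the 3 with the closest profile to Tnn, Tnc, Postn, Dpt and Tnxb; a few others are given as examples of their list, chosen after their values were seen. Alternatives were other scalings, filters, floors, eBayes settings, a replicate block, leaving out each array, the scanner values and the mean of a gene's probes.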

Additional observations from a re-analysis of the deposited data

How the results depend on the processing

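In 14 alternatives on the table, no probe of the 7 genes changed direction; in 3 on the scanner files, 8 values of tested probes did. Tnc A_51_P324992 had -0.36 (processed signal), -0.031 (without the faint Control array) and -0.12 (normexp and quantile), Tnxb A_51_P505530 had 0.46, 0.38 and 0.37, and Tnr had 0.65 without the faint array and 0.052 with normexp. Calls in the 7 genes, 6 probes in the table, were 4 with no filter, 1 of 6 probes above the floor on all 4 arrays, 8 with a floor 4 times as high or trend and robust settings, and 0 in the 3 scanner settings. Over all genes, 150 calls became 35 with no filter, 34 above the floor on all arrays, 250 with a floor 4 times as high, 233 with trend and robust settings, 227 by the mean of probes and 2, 0 and 0 in the scanner settings. In the 4 lists, 6 calls became 2 with no filter, 3 above the floor on all arrays, 13 with trend and robust settings, 10 by the mean of probes and 0 in each scanner setting. The median size of the member differences, 4.96, was 3.41 above the floor on all arrays and 0.69, 0.61 and 0.35 in the scanner settings. Fewer probes were tested above the floor on all arrays and in the scanner files; the cause of the other shifts was not tested.

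With 1 array left out, which leaves 1 array in a group, the calls were lost each time for all genes, the 7 genes and the lists. The median size of the member differences, without regard to sign, then ranged from 4.37 to 5.61. With the replicate number as a block, 0 genes, 0 member probes and 0 list genes were called, and 2744 genes were at an unadjusted p under 0.05. The numbers share only a number: deviations of same-numbered arrays correlated at 0.01 over 33709 probes. The slide as a block was not run, since the headers of the scanner files place all arrays on 1 slide. Whether the table values come from that slide was not tested. Tgfbi, with 1 probe, passed the threshold with a floor 4 times as high (adjusted p = 0.0396 in limma), with trend and robust settings (0.0413) and in the fit per gene by the mean of probes (0.0495), which tests fewer features. The 2 arrays of each group and the lenient floor limit what can be read from the dim Control values.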
